A study of Mus musculus with 5 samples.

Results

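The complement genes outside C1q comprised 9 genes: C3, C4b, C2, C1s1, C1ra, Cfb, Cfp, Serping1 and C3ar1. They were taken by gene symbol from the feature lists of the count matrices, in which each symbol named 1 of 32285 genes. The 9 were chosen with their levels and their differences between genotypes in these libraries already known, so every level, fold change and adjusted p-value given for them is a description and not independent evidence. The libraries came from mouse embryos at E18.5, near term, whose whole lungs were dissociated with collagenase and DNase I and freed of red cells by lysis. There were 2 Zswim8+/- embryos (called Het) and 3 Zswim8-/- embryos (called KO), with 1 single-cell 3′ library of the 10x Genomics v3.1 chemistry per embryo. No wild-type embryo was analysed here, so the Het embryos, which carry 1 intact allele by their label, were the reference. Zswim8 encodes a substrate receptor of a cullin-RING ubiquitin ligase known for triggering the decay of certain microRNAs.

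Complement is a cascade of serum and tissue proteins that marks particles for uptake and lysis. In the classical pathway C1q binds a target and activates its partner proteases C1r and C1s, encoded in the mouse by C1ra and C1s1, which cleave C4 (C4b) and C2 to form an enzyme that cleaves C3. In the alternative pathway factor B (Cfb) takes the place of C2, and properdin (Cfp) stabilises the resulting enzyme. The C1 inhibitor (Serping1) blocks C1r and C1s, and C3ar1 is the receptor for the C3a fragment released from C3. Liver makes most of the circulating proteins, while epithelial, stromal and myeloid cells of other organs also transcribe these genes.

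The deposited matrices held 8722 to 13539 barcodes and 56608582 to 93708304 UMIs (unique molecular identifiers, each standing for 1 captured transcript) per library, and 3051 to 4634 cells per library were kept. Zswim8 itself did not mark the genotype: it stood at 37.3 and 39.0 CPM in the Het libraries and at 38.3, 38.5 and 40.5 CPM in the KO libraries, with a log2 fold change of 0.04 (SE 0.06, edgeR adjusted p = 0.733). A 3′ count shows transcripts that end normally and may miss a deletion elsewhere in the gene, and the labels do not describe the allele, so these libraries are called KO-labelled. By Y-linked UMIs, Het 1, Het 2 and KO-labelled 3 were male and KO-labelled 1 and 2 were female, so sex and genotype were partly joined. No 2 libraries shared more than 7 kept barcodes. Cells were clustered without any complement gene and named "-like" from marker genes, and 30.4% of the 18869 kept cells stayed unnamed. Levels are given as CPM, the UMIs of a gene scaled to 1000000 UMIs of the summed cells.

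Of the 9 genes, 4 lie on chromosome 17 and 3 on chromosome 6 (GENCODE M21, GRCm38). C3 spans chr17:57203970-57228136 on the minus strand. C4b (chr17:34728380-34743882), Cfb (chr17:34856374-34862518) and C2 (chr17:34862604-34898265) stand close together on the minus strand, and C2 ends just upstream of the start of Cfb. C1ra (chr6:124512405-124523443, plus strand), C1s1 (chr6:124530345-124542359, minus strand) and C3ar1 (chr6:122847138-122856161, minus strand) are the chromosome 6 genes. Serping1 lies at chr2:84765387-84775444 and Cfp at chrX:20925454-20931555, both on the minus strand. Of the 60-base windows in the last 500 bases of the transcript, 32.4% of those of C4b also occur in C4a, 17.2% of those of C1ra in C1rb and 13.8% of those of C1s1 in C1s2, so a part of these counts could be split with, or lost to, the copies. In the whole libraries C4a stood at 0.173 to 0.463 CPM, while C1rb and C1s2 stood at 0 to 0.0384 CPM. C2 overlaps Zbtb12 and C1s1 overlaps the antisense gene Gm16567 on the opposite strand, and the strand setting of the counting is not given in the sources used here.

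C3 and C3ar1, ligand and receptor, are the members with the opposite differences described below, and their 250 bases before the RefSeq start site (GRCm38.p6, both on the minus strand, read 5′ to 3′) are chr17:57228137-57228386 and chr6:122856158-122856407. Capitals mark the only match to the searched motifs in these 2 windows.
C3: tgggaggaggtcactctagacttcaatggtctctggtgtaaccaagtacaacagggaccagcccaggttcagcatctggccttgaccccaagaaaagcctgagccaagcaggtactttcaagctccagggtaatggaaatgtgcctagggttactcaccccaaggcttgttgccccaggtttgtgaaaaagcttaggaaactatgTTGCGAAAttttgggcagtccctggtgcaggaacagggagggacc
C3ar1: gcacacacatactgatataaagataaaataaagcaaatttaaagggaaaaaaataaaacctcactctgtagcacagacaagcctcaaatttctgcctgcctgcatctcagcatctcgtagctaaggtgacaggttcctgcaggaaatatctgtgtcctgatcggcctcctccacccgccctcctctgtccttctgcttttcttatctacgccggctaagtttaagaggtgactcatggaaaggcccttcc

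The capitals in the C3 window, TTGCGAAA at position -45 from the start site, match TTGCNNAA, a form of the site of C/EBP factors, which was added to the search after the sequence had been seen. On either strand, 9.56% of 32851 RefSeq promoter windows of this length hold that motif. C1s1, another member, held it too, as TTAGGCAA at position -242 of a window (its other window had no match). The windows of C1ra, C3ar1 and Cfp did not hold it. The interferon-response motif GAAANNGAA (in 7.13% of windows) and the GAS motif TTCNNNGAA (in 7.02%) had no match in the windows of the 5 members with a RefSeq entry, which were C1ra, C1s1, C3, C3ar1 and Cfp. No entry was matched for C4b, C2, Cfb and Serping1.

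By cell class the members fell apart into genes of the mesenchymal classes and genes of the immune classes, with C3 in both and in epithelium. Mesothelial-like cells, the lining of the lung surface, had the highest mean over the 5 libraries for 6 of the 9 (C3, C4b, C2, C1s1, C1ra and Serping1), counted over the 16 classes that reached 20 cells in each of the 5 libraries. For C3 this lead came from the Het libraries, and in each KO-labelled library monocyte-like cells stood higher. For Serping1 the lead passed to adventitial fibroblast-like cells under some other filters and clusterings. Monocyte-like cells led for Cfb, macrophage-like cells for Cfp and interstitial macrophage-like cells for C3ar1. The lead for Cfp passed to monocyte-like cells under some other filters and clusterings. The mesothelial-like class was small, with 37 and 78 cells in the Het and 58 to 70 cells in the KO-labelled libraries. It was counted in the mesenchymal lineage by its mesothelial markers. The score of its cluster on the shared mesenchymal markers, 0.48, fell under the 0.5 needed for a name.

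**Figure D1:**
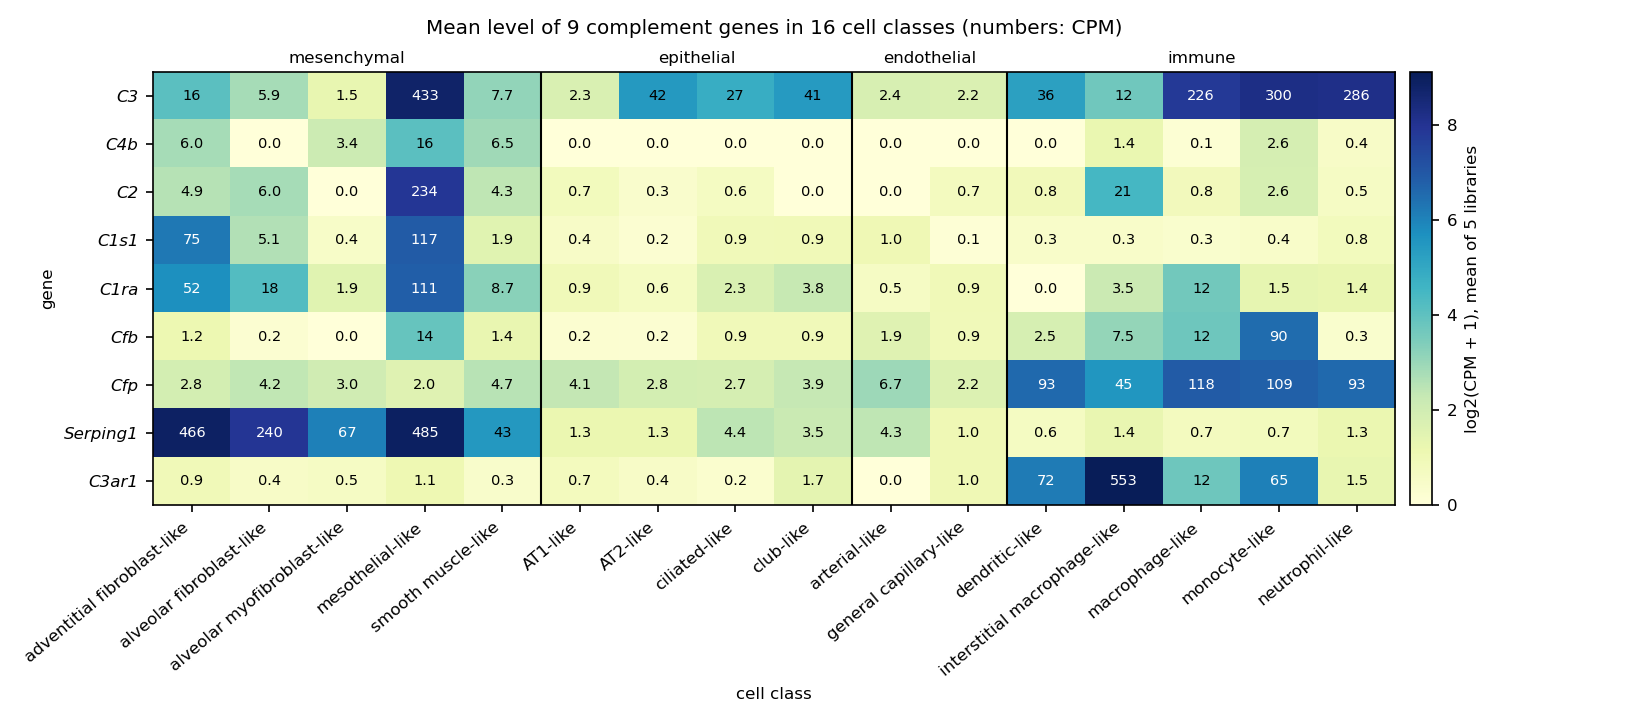
Mean CPM over 5 libraries of the 9 genes (rows) in 16 cell classes (columns, grouped by lineage), coloured by log2(CPM + 1). The mesothelial-like column holds the highest value of 6 rows, and C3ar1 reaches 553 CPM in the interstitial macrophage-like class.

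Among the 16 classes, the proteases that open the classical pathway were highest in 2 classes of the mesenchymal lineage. C1s1, the C1s protease, stood in mesothelial-like cells at 133 and 125 CPM (Het) and at 112, 114 and 101 CPM (KO-labelled). In adventitial fibroblast-like cells, which sheathe vessels and airways, it stood at 99.7 and 74.8 and at 68.3, 60.1 and 70.1 CPM. The ranges over the 5 libraries did not overlap, and the next of the 16, alveolar fibroblast-like cells, had a mean of 5.08 CPM. Pericyte-like cells, which wrap capillaries and fell under 20 cells in Het 2, had C1s1 at 42.6 and 41.1 and at 25.6, 26.5 and 44.1 CPM. C1ra, the C1r protease, followed the same order, with means of 111 CPM in mesothelial-like and 52.1 CPM in adventitial fibroblast-like cells and no overlap between them. The next classes, alveolar fibroblast-like cells at 17.6 CPM and macrophage-like cells at 11.6 CPM, overlapped in range. C1s1 had a mean of 0.254 CPM in macrophage-like cells, so the proteases parted company there.

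Serping1, their inhibitor, was the most abundant member in the mesenchymal sums. It stood at 538 and 437 CPM (Het) and 391, 502 and 555 CPM (KO-labelled) in mesothelial-like cells and at 540 and 570 and 400, 422 and 400 CPM in adventitial fibroblast-like cells. These 2 classes did not differ beyond their spread, and alveolar fibroblast-like cells (mean 240 CPM) stood below both without overlap. Alveolar myofibroblast-like cells had a mean of 66.7 CPM and smooth muscle-like cells one of 43.1 CPM. In the immune, epithelial and endothelial classes among the 16 the mean of Serping1 was at most 4.41 CPM. Smaller classes had more: pericyte-like cells (12 to 75 per library) stood at 118 and 319 and at 160, 132 and 127 CPM, and lymphatic-like cells (5 to 35 per library) had a mean of 22.6 CPM. Across the 16 class means, log2(CPM + 1) of Serping1 had a Pearson r of 0.843 with C1s1 and 0.810 with C1ra, and C1s1 and C1ra had one of 0.877. These correlations are descriptions over 16 classes that share libraries.

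C2 was highest in mesothelial-like cells. It stood at 338 and 195 CPM (Het) and at 191, 199 and 250 CPM (KO-labelled) in mesothelial-like cells. Interstitial macrophage-like cells came next at 21.8 and 19.7 and at 27.3, 18.4 and 19.7 CPM, without overlap with the class above or below. The mean of the others among the 16 was at most 5.96 CPM. The smaller T, NK and innate lymphoid-like class (6 to 41 cells per library) had a mean of 9.90 CPM, from 1 to 4 UMIs per library. C4b was the scarcest member, with 25 to 131 UMIs per library in all. Its mean was 16.1 CPM in mesothelial-like cells, ranging from 1.91 to 24.5 CPM over libraries, and this range overlapped that of smooth muscle-like and adventitial fibroblast-like cells.

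C3, the substrate on which the pathways meet, had 4 high classes of 2 lineages. It stood at 1124 and 638 CPM in mesothelial-like cells of the Het libraries and at 127, 86.6 and 190 CPM in those of the KO-labelled libraries. In monocyte-like cells it stood at 354 and 371 and at 179, 279 and 319 CPM, in neutrophil-like cells its mean was 286 CPM and in macrophage-like cells 226 CPM. These 4 classes overlapped in range, and among the 16 AT2-like cells, the surfactant-making epithelium, followed with a mean of 41.7 CPM. Club-like cells of the airway stood at 41.0 CPM and ciliated-like cells at 27.2 CPM. The club-like class joins epithelial clusters 1, 7 and 13, and cluster 13 was led by genes of multiciliated cells (Ccdc39, Deup1, Mcidas). Neuroendocrine-like cells, with 2 to 11 cells per library, had a mean of 59.1 CPM. AT1-like cells, the flat gas-exchange epithelium, stood at 2.28 CPM, so within the epithelium C3 was a gene of the secretory and airway classes. Interstitial macrophage-like cells had 11.8 CPM, the lowest of the 5 immune classes.

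The alternative pathway genes were immune genes. Cfb stood in monocyte-like cells at 110 and 119 CPM (Het) and at 117, 50.8 and 52.8 CPM (KO-labelled), above each of the other 15 classes without overlap. Mesothelial-like cells (13.6 CPM), macrophage-like cells (12.3 CPM) and interstitial macrophage-like cells (7.49 CPM) overlapped in range. Cfp, properdin, was spread evenly over the myeloid classes, with means of 118 CPM in macrophage-like, 109 CPM in monocyte-like, 93.5 CPM in neutrophil-like and 93.3 CPM in dendritic-like cells. Those 4 overlapped, interstitial macrophage-like cells stood at 45.3 CPM, and none of the 16 outside the immune lineage had a mean above 6.66 CPM. The few neuroendocrine-like cells had one of 29.5 CPM, from 35 UMIs in all.

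C3ar1, the C3a receptor, was concentrated in interstitial macrophage-like cells, at 574 and 517 CPM (Het) and 562, 551 and 559 CPM (KO-labelled). Dendritic-like cells (71.5 CPM) and monocyte-like cells (65.3 CPM) overlapped with each other and lay below it without overlap. Macrophage-like cells, whose main cluster was led by Plet1, Lpl and Ear2, had 12.1 CPM. Basophil and mast-like cells, too few in KO-labelled 1 to enter the order (12 cells), stood at 147 and 97.9 and at 229, 176 and 215 CPM. After thinning every cell to 3000 UMIs, 68.7% and 72.3% of interstitial macrophage-like cells of the Het libraries and 78.3%, 78.5% and 75.2% of those of the KO-labelled libraries had a C3ar1 UMI (67.0%, 65.3%, 80.1%, 73.6% and 75.1% before thinning), against 0% to 1.08% of general capillary-like cells. Thinning left out cells with fewer UMIs, 133 Het and 268 KO-labelled interstitial macrophage-like and 24 and 20 general capillary-like cells. Median depths were 7714 and 6464 against 8501, 8348 and 9798.5 UMIs in the first class and 6745 to 10991 in the second. Red-cell barcodes, which carry free RNA of the suspension, held 0.722 to 1.84 CPM of C3ar1, and C3 reached the highest level there of the 9 genes, 5.58 CPM.

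The UMIs of most members lay largely in 1 lineage. Mesenchymal cells held 90.1% to 94.1% of the C1s1 UMIs, 91.6% to 94.2% of those of Serping1, 80.1% to 87.7% of those of C2 and 68.7% to 84.0% of those of C4b, while they made up 12.7% to 28.6% of the kept cells. Immune cells held 94.6% to 96.6% of the Cfp UMIs, 98.3% to 99.3% of those of C3ar1 and 83.1% to 91.6% of those of Cfb. C3 was mainly immune by UMIs, with 71.6% and 68.0% in the Het and 80.9%, 89.4% and 85.4% in the KO-labelled libraries, and 12.5% and 9.10% of its Het UMIs against 3.90% to 5.37% of its KO-labelled UMIs were epithelial. C1ra was shared between mesenchymal cells (58.2% to 82.0%) and immune cells (14.2% to 33.4%).

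**Figure D2:**
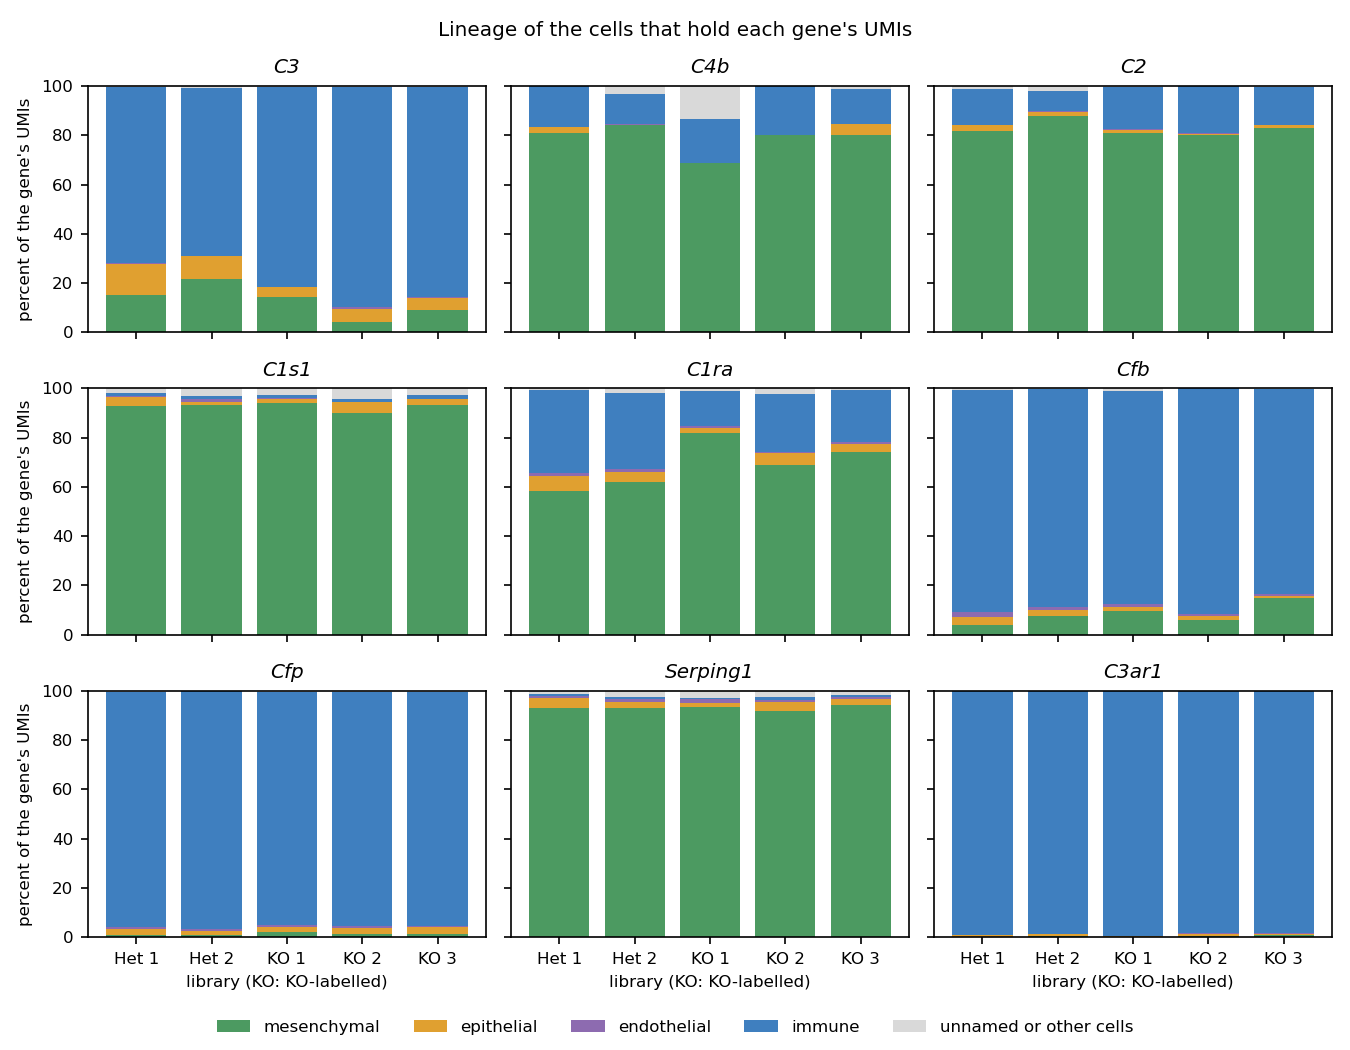
Percent of the UMIs of each gene (panels) that lay in mesenchymal, epithelial, endothelial, immune and other or unnamed cells of each library (bars). C1s1, Serping1, C2 and C4b are mainly mesenchymal, Cfp, Cfb and C3ar1 immune, and the epithelial part of C3 is 12.5% and 9.10% in the Het libraries against 3.90% to 5.37% in the others.

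For each member the 3 genes with the most similar profile over the 16 classes were listed by Pearson r of log2(CPM + 1), among 12868 genes that are no complement genes. C3ar1 was most like Cx3cr1 (r = 0.989), the fractalkine receptor of tissue macrophages, then Slc9a9 (0.965) and Aif1 (0.962). Serping1 was most like Cdh11 (0.986) and Col3a1 (0.981), a mesenchymal cadherin and a fibrillar collagen, then 8430419K02Rik (0.977). C1s1 was most like Cpz (0.987), a carboxypeptidase, then Adgrd1 (0.979) and AW551984 (0.978), and Cfp was most like C130050O18Rik (0.985), Lilrb4a (0.980) and Parvg (0.979). The nearest genes of the other members had lower values: 0.899 for C1ra (Cxcl14, Sema3d, Slitrk4), 0.888 for C4b (Il1rapl1, Podn, Cys1), 0.886 for Cfb (Necap1, BC005537, Acp5), 0.876 for C3 (Ptk2b, Ggct, Map3k5) and 0.866 for C2 (Tpbgl, Tppp, Thbs4). These lists depended on the measure. By Spearman rho, C3 kept 1 of its 3 genes and each other member kept 0. With a pseudocount of 10 in place of 1, Cfb, Cfp and Serping1 kept 0 and C3 and C2 kept 1. C4b, C1s1, C1ra and C3ar1 kept 2. No p-value belongs to these correlations, whose points share libraries and depth.

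The design compares KO-labelled with Het lungs. The values below are CPM scaled by edgeR's trimmed mean of M-values (TMM), and a gene was called at an edgeR quasi-likelihood adjusted p under 0.05 over all genes tested. Summed over all kept cells, 3 of the 9 members were called, C3 and Cfb lower and C3ar1 higher in the KO-labelled lungs, and in this comparison 4.1% of 17748 genes were called. C3 stood at 145 and 149 CPM in the Het and at 69.7, 84.4 and 98.1 CPM in the KO-labelled libraries. C3 fell by 0.80 on the log2 scale (SE 0.14, edgeR adjusted p = 0.0392), with no overlap of the groups. Cfb stood at 11.4 and 11.8 against 6.18, 5.51 and 4.76 CPM and fell by 1.08 (SE 0.13, edgeR adjusted p = 0.0214), also without overlap. C3ar1 stood at 26.3 and 23.6 against 51.3, 49.2 and 46.3 CPM and rose by 0.97 (SE 0.08, edgeR adjusted p = 0.0139), again without overlap. With 2 against 3 libraries such separation is common: the groups did not overlap for 8364 of the 17748 genes tested.

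The other 6 were not called, with edgeR adjusted p from 0.457 to 0.808, and their groups overlapped. Serping1, for example, stood at 42.3 and 61.6 against 86.2, 50.3 and 60.04 CPM, highest in KO-labelled 1. The median log2 fold change of the 9 was -0.05, beside 0.005 over all genes tested. The mesenchymal share of the kept cells was 12.7% and 14.4% in the Het and 28.6%, 18.3% and 22.1% in the KO-labelled libraries, and in whole-library values the number of cells of a type and the RNA of a gene per cell cannot be told apart. All 3 calls were lost when Het 1 or Het 2 was left out (edgeR adjusted p 0.112 to 0.236), which leaves 1 Het library, and with sex as a covariate (0.126 to 0.171). C3 was also lost without KO-labelled 2 (0.0747) and without cells carrying markers of another lineage (0.101), while its log2 fold change stayed between -0.94 and -0.58 in the 17 alternatives.

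**Figure D3:**
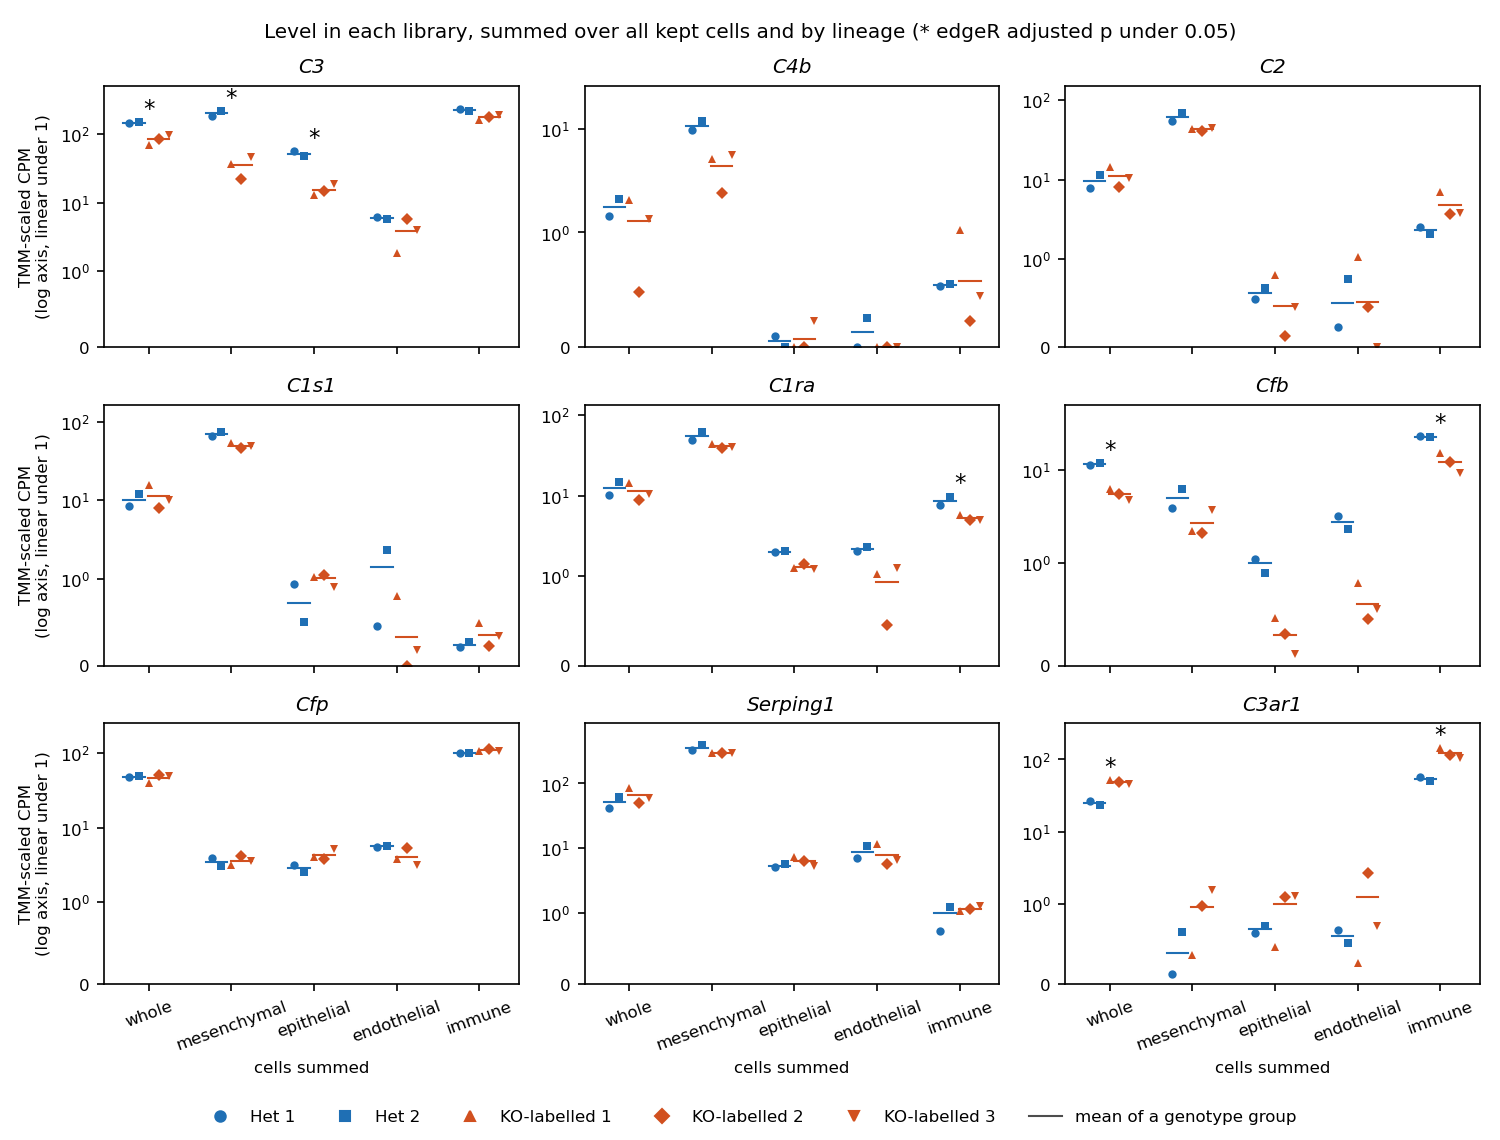
TMM-scaled CPM of the 9 genes (panels) in each library, summed over all kept cells and over each lineage, on a log axis that is linear under 1 CPM, with lines for the group means and asterisks for edgeR adjusted p under 0.05. C3 is lower in the KO-labelled libraries in the whole, mesenchymal and epithelial sums, and C3ar1 is higher in the whole and immune sums.

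C3 was lower in the KO-labelled libraries in the epithelial and the mesenchymal sums, while the immune sums missed the threshold. In epithelial cells, where 1 of 8 members tested was called and 5.38% of 15231 genes were, C3 stood at 56.2 and 47.8 against 12.8, 14.7 and 18.48 CPM. It fell by 1.75 on the log2 scale (SE 0.16, edgeR adjusted p = 0.00453), and the call stood in every alternative run, between -1.96 and -1.49. In mesenchymal cells, where 1 of 8 members tested was called and 0.138% of 13756 genes were, C3 stood at 186 and 219 against 37.0, 22.5 and 46.1 CPM and fell by 2.51 (SE 0.24, edgeR adjusted p = 0.0175). The mesenchymal call was lost without KO-labelled 1 (0.0918) and with sex as a covariate (0.342). In immune cells C3 stood at 231 and 217 against 159, 181 and 194 CPM, a log2 fold change of -0.33 that missed the threshold (SE 0.09, edgeR adjusted p = 0.0542). The groups did not overlap there, and neither did those of 5833 of the 13955 genes tested. Endothelial C3 lay between 1.87 and 6.12 CPM and was not called (edgeR adjusted p = 0.462).

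The difference between lineages was itself tested, with 3 genotype by lineage terms and a term for each library, and 2 of the 9 members were called, C3 and C2, beside 7.19% of 16530 genes. C3 had an F of 32.1 (edgeR adjusted p = 0.0002135), and its log2 fold change in immune cells was 1.46 above and in mesenchymal cells 0.73 below that in epithelial cells (terms 1.46 and -0.73). C2 had an edgeR adjusted p of 0.0462, with an immune term of 1.58 and a mesenchymal term of 0.09. C2 stood at 54.3 and 69.1 against 43.4, 41.6 and 45.4 CPM in mesenchymal cells and at 2.53 and 2.06 against 6.98, 3.72 and 3.77 CPM in immune cells. It was thus lower in 1 lineage and higher in the other, although neither single fit called it (edgeR adjusted p = 0.187 and 0.0808). Mesothelial-like cells held most mesenchymal C2 UMIs, such as 372 of 406 in Het 1 and 312 of 342 in KO-labelled 2. In that class the groups of C2 overlapped (log2 fold change -0.28, SE 0.23, edgeR adjusted p = 0.784). In interstitial macrophage-like cells, which held most immune C2 UMIs, its log2 fold change was 0.01 (SE 0.23, edgeR adjusted p = 0.990). The part of class makeup in the lineage values of C2 was not tested. The call of C2 was lost when Het 1, Het 2, KO-labelled 1 or KO-labelled 2 was left out, and that of C3 stood in each of these fits.

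Within cell classes C3 was lower in AT2-like cells. It stood there at 86.1 and 90.3 against 14.0, 12.1 and 18.4 CPM and fell by 2.55 on the log2 scale (SE 0.17, edgeR adjusted p = 2.36e-05), where 1 of 2 members tested was called and 13.2% of 11636 genes were. The AT2-like class was made up differently in the 2 genotypes. Most Het AT2-like cells lay in epithelial cluster 0 (197 and 113 cells, against 38, 27 and 70), and most KO-labelled ones in clusters 3 and 11, so clusters 0 and 3 were also fitted alone, an analysis chosen after seeing the data. In cluster 0, led by Retnla and Lyz1, C3 stood at 95.1 and 132 against 18.3, 19.4 and 68.2 CPM and fell by 1.27 (SE 0.27, edgeR adjusted p = 0.011; 2.06% of genes called). In cluster 3, led by Fbn2 and Egfl6, it stood at 55.3 and 52.4 against 17.6, 14.8 and 8.35 CPM and fell by 2.06 (SE 0.24, edgeR adjusted p = 3.46e-05; 4.96% of genes called). The difference was therefore present in both clusters, and whether it differed between them was not tested. Cluster 11 was not fitted alone, and its part in the value of the class was not tested. In cluster 0, KO-labelled 3 lay nearest to the Het libraries. The cluster 0 call was lost without KO-labelled 1 (0.0676), and without KO-labelled 3 the value there was -2.56. After thinning to 3000 UMIs, 18.55% and 19.8% of Het and 3.23%, 2.52% and 4.08% of KO-labelled AT2-like cells had a C3 UMI (57.8%, 65.6%, 27.5%, 35.2% and 30.7% before thinning), against 0% to 1.22% of general capillary-like cells. Here 2 Het and 22 KO-labelled AT2-like cells were left out, and the median depths were 15706 and 17941 against 19482, 31442.5 and 25333 UMIs.

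Airway cells were too few for the 50-cell minimum and were fitted after seeing the data. The club-like class was not compared as a whole, because cluster 1 held 189 and 122 Het but 9, 37 and 3 KO-labelled cells. In cluster 7, led by Krt15, Scgb3a2 and Cbr2, with 58 and 35 against 48, 30 and 24 cells, C3 stood at 94.5 and 81.2 against 15.6, 42.95 and 22.1 CPM. It fell by 1.76 (SE 0.30, edgeR adjusted p = 0.0073; 0.213% of genes called). That call was lost without KO-labelled 1 (0.09007). In CPM without TMM, cluster 13 stood at 51.3 and 50.5 against 15.8, 22.5 and 22.9, and cluster 1, with 1 to 6 C3 UMIs in each KO-labelled library, at 94.96 and 92.9 against 113, 42.8 and 40.3. In ciliated-like cells it stood at 55.5 and 49.0 against 4.77, 13.7 and 14.8 CPM and fell by 2.14 (SE 0.26, edgeR adjusted p = 0.00609; 0.176% of genes called). The ciliated-like call was lost without KO-labelled 2 (edgeR adjusted p = 0.105). Neuroendocrine-like cells stood at 59.96 and 36.5 against 82.9, 62.6 and 53.7 CPM without TMM, with overlap of the groups. They were too few to test (2 to 11 cells per library), so a difference of C3 there is neither shown nor excluded.

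The mesenchymal difference of C3 lay mostly in mesothelial-like cells, which held 89.1% and 93.6% of the mesenchymal C3 UMIs of the Het and 72.9%, 73.5% and 67.3% of those of the KO-labelled libraries. In the mesothelial-like class C3 stood at 1106 and 646 against 134, 86.8 and 188 CPM, a log2 fold change of -2.68 (SE 0.33), but edgeR called 0.0% of 10966 genes there (adjusted p = 0.331 for C3), while 824 had an unadjusted p under 0.05. The class fell under the 50-cell minimum. It, its cluster 6 and the mesenchymal sums without it were fitted after seeing the data. Its second cluster, cluster 15, held 2 and 49 Het and 24, 5 and 7 KO-labelled cells and was not fitted alone. In cluster 6 alone, led by Col4a4 and Upk3b, with 29 to 55 cells per library, C3 stood at 1095 and 965 against 63.5, 95.2 and 186 CPM and fell by 3.14 (SE 0.29, edgeR adjusted p = 0.000155; 0.38% of genes called). With mesothelial-like cells left out of the mesenchymal sums, C3 stood at 23.7 and 21.0 against 12.6, 7.38 and 17.98 CPM and was no longer called (log2 fold change -0.78, edgeR adjusted p = 0.25).

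C3 was not called in the 4 immune classes of at least 50 cells per library or in dendritic-like cells. In macrophage-like cells it stood at 252 and 234 against 222, 203 and 222 CPM, with a log2 fold change of -0.17 (SE 0.08, edgeR adjusted p = 0.179). In monocyte-like cells it stood at 365 and 376 against 179, 281 and 310 CPM (-0.51, SE 0.18, edgeR adjusted p = 0.389), lowest in KO-labelled 1, which had 96 monocyte-like cells against 316 to 350 in the other libraries. In neutrophil-like cells it stood at 317 and 301 against 240, 300 and 302 CPM (-0.13, SE 0.13, edgeR adjusted p = 0.786). The groups of C3 did not overlap in macrophage-like and monocyte-like cells, and neither did those of 4472 of 10721 and 2574 of 9345 genes tested there. In interstitial macrophage-like cells C3 was higher in the KO-labelled libraries, at 7.50 and 8.12 against 22.6, 10.001 and 11.1 CPM (0.86, SE 0.41, edgeR adjusted p = 0.432). Its groups did not overlap there, as those of 3114 of 10271 genes tested did not. In dendritic-like cells (29 to 48 per library, fitted after seeing the data) it stood at 45.0 and 21.7 against 30.7, 52.9 and 38.1 CPM (0.29, SE 0.36, edgeR adjusted p = 0.957; 0.125% of genes called).

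Markers of other lineages were present in the epithelial and mesenchymal sums, and some moved with genotype. A list of 6 immune markers was above 0 in every epithelial and mesenchymal sum. Their summed level was 67.6 and 39.6 against 32.0, 54.3 and 58.1 CPM in epithelial cells and 102 and 51.5 against 13.3, 59.3 and 55.8 CPM in mesenchymal cells, beside 4955 to 5573 CPM in immune cells. In the epithelial sums 6 endothelial markers summed to 662 and 857 against 206, 188 and 310 CPM, 6 mesenchymal markers to 125 and 162 against 391, 136 and 269 CPM and 5 red-cell markers to 11076 and 5574 against 3362, 3304.5 and 3714 CPM. The endothelial and red-cell lists were thus lower in the KO-labelled epithelial sums without overlap, as C3 was. C3 itself lay at 1.87 to 6.12 CPM in the endothelial sums and reached 5.58 CPM in red-cell barcodes. In the mesenchymal sums the endothelial markers summed to 159 and 147 against 121, 118 and 148 CPM and the red-cell markers to 14667 and 7163.5 against 4931, 6192 and 7018 CPM. The part of these lists in the differences of C3 was not tested.

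Cfb was lower in the immune sums, at 22.9 and 22.4 against 15.1, 12.1 and 9.15 CPM, and fell by 0.94 on the log2 scale (SE 0.16, edgeR adjusted p = 0.0134). There 3 of 9 members were called (C1ra and Cfb lower, C3ar1 higher), beside 7.75% of 13955 genes. In macrophage-like cells Cfb stood at 18.3 and 19.7 against 9.77, 7.37 and 7.08 CPM and fell by 1.29 (SE 0.16, edgeR adjusted p = 0.000401), where 2 of 5 members tested were called (Cfb lower, Cfp higher) and 12.1% of 10721 genes were. The macrophage-like class differed in makeup: cluster 9, led by Fabp4, Spp1 and Inhba in its leading genes, held 151 and 167 Het but 2, 16 and 21 KO-labelled cells, and Cfb stood in it at 40.2 and 41.2 CPM in the Het libraries. In cluster 0 alone, which held most cells of the class in every library, Cfb stood at 9.93 and 9.80 against 10.0, 5.68 and 6.53 CPM and was not called (-0.49, SE 0.23, edgeR adjusted p = 0.281; 3.87% of genes called).

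In monocyte-like cells, the class with the most Cfb, it stood at 113 and 121 against 117, 51.2 and 51.4 CPM, and KO-labelled 1 lay with the Het libraries (-0.82, SE 0.27, edgeR adjusted p = 0.342; 0.161% of 9345 genes called). In interstitial macrophage-like cells it stood at 16.6 and 8.66 against 6.50, 3.44 and 3.01 CPM (-1.59, SE 0.41, edgeR adjusted p = 0.11; 0.964% of 10271 genes called). In the epithelial sums it stood at 1.09 and 0.902 against 0.467, 0.312 and 0.113 CPM (edgeR adjusted p = 0.083) and in the endothelial sums at 3.17 and 2.33 against 0.801, 0.455 and 0.549 CPM (edgeR adjusted p = 0.0566). In the mesenchymal sums it stood at 3.88 and 6.18 against 2.19, 2.07 and 3.72 CPM (edgeR adjusted p = 0.351). Cfb was thus lower without overlap in the sums of all 4 lineages and was called in the immune sums alone among them. Genes lower without overlap numbered 3325 of 15231 in epithelial, 2429 of 11869 in endothelial, 2180 of 13756 in mesenchymal and 2895 of 13955 in immune sums. The epithelial values of Cfb rest on 22 and 16 against 4, 5 and 2 UMIs. The endothelial values rest on 14 and 9 against 3, 2 and 3 UMIs. Red-cell barcodes held 0 to 0.383 CPM of Cfb. In the endothelial sums 0 of 4 members tested were called by edgeR and 0 by DESeq2, 1 had an unadjusted p under 0.05, and 5.65% of 11869 genes were called. In monocyte-like cells edgeR and DESeq2 called 0 of 6 members tested, 3 of them with an unadjusted p under 0.05, and in interstitial macrophage-like cells 0 of 5, with 1. The immune call was lost without Het 1 (0.0898) or Het 2 (0.091).

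Cfp was called in the macrophage-like class alone among the sums over all cells, the 4 lineages and the 9 classes of at least 50 cells per library. In the immune sums it stood at 101 and 101 against 107, 115 and 108 CPM (edgeR adjusted p = 0.247). In macrophage-like cells it stood at 105 and 103 against 127, 127 and 126 CPM and rose by 0.28 on the log2 scale (SE 0.07, edgeR adjusted p = 0.0208). Cfp is X-linked, 2 of the 3 KO-labelled embryos were female, and with sex as a covariate the log2 fold change was 0.27 with an edgeR adjusted p of 0.07945. The call was also lost without Het 1, Het 2 or KO-labelled 2 (0.195, 0.218 and 0.0597), by DESeq2 (0.0557) and with complement genes kept for clustering (0.05545), and in cluster 0 alone the value was 0.14 (0.366).

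C3ar1 was higher in the immune sums of the KO-labelled libraries, at 57.8 and 49.9 against 144, 116 and 105 CPM, and rose by 1.17 on the log2 scale (SE 0.13, edgeR adjusted p = 0.0025). This call stood in every alternative run. Interstitial macrophage-like cells, which held 69.7% and 64.8% of the immune C3ar1 UMIs of the Het and 80.0%, 70.0% and 77.3% of those of the KO-labelled libraries, made up 9.68% and 9.29% of the Het and 28.1%, 19.6% and 20.6% of the KO-labelled immune cells. Within that class C3ar1 stood at 608 and 510 against 563, 551 and 546 CPM, with a log2 fold change of -0.02 (SE 0.11, edgeR adjusted p = 0.978) whose sign changed among the alternatives. With the class left out of the immune sums, a fit added after seeing the data, C3ar1 stood at 18.6 and 18.7 against 36.4, 40.9 and 28.1 CPM and rose by 0.90 (SE 0.14, edgeR adjusted p = 0.0115). In that fit 4 members were called, C3ar1 and Cfp higher and Cfb and C1ra lower, beside 5.28% of 13511 genes. None of the 4 calls stood without Het 1 or without Het 2 (edgeR adjusted p 0.0644 to 0.316), and that of C3ar1 stood without each KO-labelled library.

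Other myeloid classes with C3ar1 leaned upward. In macrophage cluster 0 it stood at 4.63 and 6.49 against 15.1, 13.3 and 10.8 CPM and rose by 1.18 (SE 0.23, edgeR adjusted p = 0.012; 3.87% of genes called), a call lost without Het 1 (0.188). Over the whole macrophage-like class the values were 10.1 and 11.3 against 13.03, 14.7 and 11.4 CPM (0.27, SE 0.17, edgeR adjusted p = 0.341), and cluster 9, scarce in the KO-labelled libraries, stood at 24.8 and 21.5 CPM in the Het libraries. In monocyte-like cells the values were 38.1 and 45.0 against 133, 60.2 and 51.1 CPM (0.82, SE 0.33, edgeR adjusted p = 0.431). In dendritic-like cells they were 73.3 and 47.7 against 85.6, 89.0 and 74.4 CPM (0.46, SE 0.24, edgeR adjusted p = 0.803). C3ar1 was called in neither class. Its groups did not overlap in monocyte-like cells, and neither did those of 2574 of the 9345 genes tested there.

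**Figure D4:**
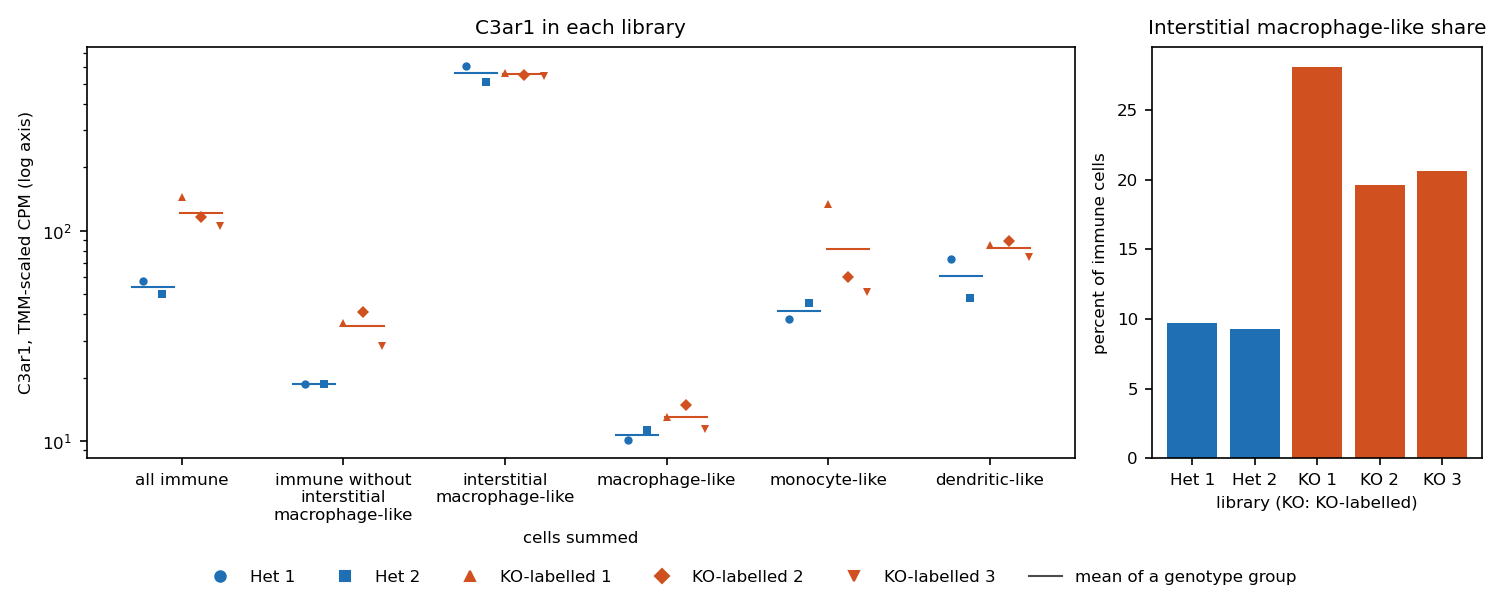
Left, TMM-scaled CPM of C3ar1 in each library (points, log axis) for all immune cells, immune cells without the interstitial macrophage-like class, and 4 classes, with lines for the group means. Right, the interstitial macrophage-like share of the immune cells, 9.68% and 9.29% in the Het and 19.6% to 28.1% in the KO-labelled libraries.

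In the mesenchymal sums 7 of the 8 members tested, C3, C4b, C2, C1s1, C1ra, Cfb and Serping1, were lower in all 3 KO-labelled libraries than in both Het libraries, and 15.8% of the 13756 genes tested were. Of the 7, C3 was called and the other 6 were not. C1s1 stood at 65.8 and 74.8 against 53.7, 45.6 and 48.4 CPM (log2 fold change -0.51, SE 0.10, edgeR adjusted p = 0.141). C1ra stood at 50.1 and 61.8 against 44.1, 38.8 and 40.9 CPM (-0.44, SE 0.11, edgeR adjusted p = 0.232). Serping1 stood at 330 and 389 against 297, 292 and 294 CPM (-0.29, SE 0.09, edgeR adjusted p = 0.294). C4b stood at 9.76 and 11.9 against 5.19, 2.43 and 5.58 CPM (-1.26, SE 0.30, edgeR adjusted p = 0.195). The median log2 fold change of the 8 was -0.51, beside -0.003 over all genes tested.

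The 4 were also lower without overlap in adventitial fibroblast-like cells, as 14.9% of the 10606 genes tested there were. In this class edgeR called 0 of 6 members tested and 1.08% of genes, 4 members had an unadjusted p under 0.05 and DESeq2 called 1, Serping1. Serping1 stood there at 542 and 566 against 412, 428 and 398 CPM (-0.43, SE 0.10, edgeR adjusted p = 0.0607) and C4b at 8.73 and 10.955 against 3.26, 2.76 and 4.42 CPM (-1.44, SE 0.34, edgeR adjusted p = 0.0692). C1s1 and C1ra had values of -0.37 and -0.43 (edgeR adjusted p = 0.292 and 0.137). In mesothelial cluster 6 the 4 were not called, with log2 fold changes of -0.13 for C1s1, -0.04 for C1ra, -0.15 for Serping1 and -0.68 for C4b and adjusted p-values from 0.748 to 0.964 by edgeR. With mesothelial-like cells left out of the mesenchymal sums, C4b stood at 7.17 and 7.66 against 2.63, 2.56 and 3.15 CPM and fell by 1.40 (SE 0.24, edgeR adjusted p = 0.0312), the only member called beside 0.95% of 12942 genes, and C1s1 had -0.58 (SE 0.12, edgeR adjusted p = 0.0541). The C4b call was lost whichever library was left out (0.0601 to 0.195).

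C1ra was also lower in the immune sums, at 7.65 and 9.80 against 5.86, 5.01 and 5.08 CPM, and fell by 0.72 on the log2 scale (SE 0.15, edgeR adjusted p = 0.0243). The call was lost without Het 2 (0.243), KO-labelled 2 (0.0805) or KO-labelled 3 (0.0622) and with sex as a covariate (0.119). In macrophage-like cells, its main immune class, it stood at 13.1 and 14.9 against 9.37, 10.9 and 10.1 CPM and was not called (-0.46, SE 0.16, edgeR adjusted p = 0.0818). The remaining classes added no call: in AT1-like (4.94% of genes called) and general capillary-like cells (7.19%) no member had enough UMIs to be tested, in alveolar myofibroblast-like cells (1.72%) the 1 tested was not called, and in neutrophil-like cells (0.0368%) neither of the 2 tested was, with an unadjusted p under 0.05 for 0 members.

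Of 45 other complement genes in 7 lists, 34 could be tested in the whole libraries. Of these 4 were called higher and 4 lower, beside 4.1% of all 17748 genes tested. The C1q genes C1qa, C1qb and C1qc rose together, by 1.11, 1.15 and 1.14 on the log2 scale (edgeR adjusted p from 0.0178 to 0.036), and so did Fcna, a ficolin that starts the lectin pathway (1.21, edgeR adjusted p = 0.0467). C1qa and C1qc were among the leading genes of cluster 3 of the interstitial macrophage-like class, which took the larger share of KO-labelled immune cells given above, and the part of that share in their rise was not tested. Of 3 terminal components tested, Hc, which encodes C5, fell by 1.67 and C6 fell by 2.05 (edgeR adjusted p = 0.0285 and 0.0178). C1rl, a relative of C1ra, fell by 0.80 and Itgax, a chain of complement receptor 4, fell by 1.16. In the epithelial sums 5.38% of 15231 genes were called, and 2 of the 3 C1q genes were called higher. Hc stood there at 209 and 167 against 56.8, 55.1 and 81.2 CPM. C6 stood at 21.8 and 16.5 against 7.002, 4.56 and 4.63 CPM, and both were called lower (edgeR adjusted p = 0.00612 for each), as C3 was. In AT2-like cells Hc stood at 588 and 437 against 95.9, 86.1 and 114 CPM and C6 at 66.7 and 42.1 against 10.5, 5.54 and 7.19 CPM, and they fell by 2.38 and 2.89 (edgeR adjusted p = 2.36e-05 and 6.84e-05). C1qa and C1qb were called higher there, at 2.23 to 8.65 CPM, in a fit that called 13.2% of 11636 genes.

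In the immune sums 4 of 22 list genes tested were called higher (C1qa, C1qb, C1qc and Fcna) and 3 lower, beside 7.75% of 13955 genes. The 3 were C1rl by 0.68, Itgax by 1.04 and Itgb2 by 0.58 on the log2 scale. In the endothelial sums 1 of 14 was called, beside 5.65% of 11869 genes. It was Clu, a soluble regulator of the lytic complex, which fell by 1.22 (edgeR adjusted p = 0.0287). In the mesenchymal sums 0 of 22 were called by edgeR or by DESeq2, 8 of them with an unadjusted p under 0.05, and edgeR called 0.138% of 13756 genes. Over the lists the median log2 fold change was -0.04 in the whole libraries and 0.02 in the immune sums. Of 8 membrane regulators tested in the whole libraries, edgeR and DESeq2 called 0, and 1 had an unadjusted p under 0.05. Leaving out 1 library moved the number of list genes called in any of these 5 fits from 10 to between 4 and 11.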

How the data were processed

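Whole-lung cells of 5 mouse embryos (2 Het, 3 KO) were measured by 3′ single-cell RNA sequencing. The authors deposited raw UMI counts for every gene in every barcode, and the submitters' processing notes name Cell Ranger 4.0.0 and mm10. A barcode was kept if it showed 500 or more genes and no more than 15% of its UMIs were mitochondrial, and red-cell barcodes and doublets (78 to 186 per library, at a rate of 0.8% per 1000 barcodes) were removed. Cells were clustered with scanpy 1.11.5 (2000 variable genes, 30 principal components, 15 neighbours, Leiden resolution 1), with complement genes left out, and named from marker lists. The margins of the naming rule were set after the clusters had been seen.

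UMIs were summed per library over all cells, each lineage and each class that reached 50 cells in all 5 libraries, and tested with edgeR 4.0.16 (quasi-likelihood, two-sided, TMM, filterByExpr, Benjamini-Hochberg over all genes tested). The embryo was the replicate, and cells were not. Fits of smaller classes, of single clusters and of lineages without 1 class were added after the data had been seen. Class levels are CPM of class totals without TMM. Each comparison of 2 with 3 embryos has few degrees of freedom: in simulated data 64.1% of 198 genes changed by 1 on the log2 scale were recovered in the whole libraries. For the lineage sums the share recovered was 62.9% (epithelial, of 194), 63.2% (endothelial, of 190), 72.2% (mesenchymal, of 198) and 78.6% (immune, of 196). It was 43.8% in mesothelial cluster 6 (of 194) and 39.0% in the genotype by lineage test (of 200). In AT2-like cells it was 71.6% (of 194) and in macrophage-like cells 84.9% (of 192). Unchanged genes were also called: 9 in the whole libraries, 8 in epithelial, 21 in endothelial, 14 in mesenchymal and 14 in immune sums. There were 20 in AT2-like cells beside 139 recovered, 24 in macrophage-like cells beside 163 recovered, and 7 in each of the last 2 fits of the table of fits, cluster 6 and genotype by lineage.

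The 9 genes, the complement lists, the comparisons and their alternatives were chosen with earlier results of these data known. The genes named in the text were all 9 members, the list genes called in the whole library or a lineage (at most 4 per fit and direction), and the 3 genes most like each member. Red-cell barcodes, 21.4% to 48.7% of the barcodes, were used for free RNA alone. Alternatives were DESeq2 1.42.0, library size alone, no low-count filter, other cell filters and clusterings, doublets kept, mixed cells left out (at least 3 of 6 markers of another lineage), sex as a covariate, a replicate term and each library left out. Gene positions are from GENCODE M21, in which 32158 of 32285 gene identifiers were found.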

Additional observations from a re-analysis of the deposited data

Results flagged for a closer look

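C3 differed between lineages in its KO-labelled against Het change by a test of the difference itself, the genotype by lineage terms (edgeR adjusted p = 0.0002135). Its log2 fold change was -2.51 in mesenchymal, -1.75 in epithelial, -0.59 in endothelial and -0.33 in immune cells. C2 passed the same test (edgeR adjusted p = 0.0462), with lower values in the mesenchymal and higher values in the immune sums of the KO-labelled libraries. Without the interstitial macrophage-like class, which holds most immune C2, the immune log2 fold change of C2 was 0.41 (edgeR adjusted p = 0.52). Within the mesothelial-like class, which holds most mesenchymal C2, it was -0.28 (edgeR adjusted p = 0.784). Without that class the mesenchymal value was -0.70 (edgeR adjusted p = 0.335). Groups of 2 and 3 libraries are too small for a check on single libraries that stand apart.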

How the results depend on the processing

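Of 11 called log2 fold changes under 182 alternatives, 150 kept direction and call, 32 lost the call and 0 changed sign. Of 41 not called under 650 alternatives, 569 stayed so, 39 were called and 42 changed sign. The cause of these changes was not tested.

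The number of members called was 3 in the whole library and 0 with the replicate block, 0 with sex as a covariate and 0 to 3 with 1 library left out. In the epithelial sums it was 1, and 2 with doublets kept, without the low-count filter or with sex. In the endothelial sums it was 0, and 1 with doublets kept or without the filter. In the mesenchymal sums it was 1, against 2 by DESeq2, 0 under the stricter cell filter (at least 1000 genes, at most 10% mitochondrial UMIs), 2 without mixed cells, 4 without the low-count filter, 0 with the replicate block, 0 with sex and 0 to 2 with 1 library left out. In the immune sums it was 3, against 5 by DESeq2, 5 without the filter, 5 with the replicate block and 1 to 4 with 1 library left out. In the classes it was 3, against 6 with doublets kept, 7 without the filter, 5 with classes of at least 20 cells (added after seeing the data, the club-like class of 3 clusters included) and 2 to 6 with 1 library left out. The genotype by lineage test called 2, against 1 without mixed cells and 1 to 2 with 1 library left out. Other complement genes called were 10, 6 with sex and 4 to 11 with 1 library left out. These counts stand without the number tested and the share of all genes called under each setting. A change in them can therefore not be told from a change in that share. In the main class fits the share ran from 0.0368% (neutrophil-like) to 13.2% (AT2-like). Without mixed cells the mesothelial-like class fell under 20 cells in a library, and 3 of 9 members kept their leading class, against 7 or 8 under the other clusterings and filters.

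Replicate numbers did not pair the libraries: deviations of same-numbered libraries correlated at -0.084 and -0.0703. With the replicate block, whole-library C3, Cfb and C3ar1 had an edgeR adjusted p of 0.0739, 0.106 and 0.0647 and mesenchymal C3 one of 0.0726, while immune C3 (0.0127) and C2 (0.0135) were called.

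Signs changed in values that were not called. With 1 library left out, whole-library log2 fold changes ran from -0.0685 to 0.49 for C2, -0.17 to 0.40 for C1s1, -0.37 to 0.15 for C1ra and -0.11 to 0.0467 for Cfp. The ranges were -0.50 to 0.15 for endothelial Serping1, -0.12 to 0.23 for mesenchymal Cfp, -0.62 to 0.33 for immune C4b, -0.0782 to 0.64 for immune Serping1, -1.02 to 0.01002 for adventitial C3 and -0.14 to 0.12 for interstitial macrophage C3ar1. With sex as a covariate, C1s1 (whole) had -0.0207, Cfp (whole) 0.0245, Serping1 (epithelial) -0.0011 and C3 (adventitial) 0.39. With doublets kept, C3ar1 (epithelial) had -0.26, C3 (endothelial) 0.23, Serping1 0.47 (endothelial) and -0.17 (immune), Cfp (mesenchymal) -0.0724 and C4b (immune) 0.49. Under the stricter cell filter, which left no AT1-like or AT2-like class, Serping1 had 0.25 (endothelial) and -0.64 (immune), C4b (immune) 0.35 and C3ar1 (macrophage) -0.00395. Without mixed cells Serping1 (epithelial) had -0.94. Immune C4b had 0.0269 by DESeq2, 0.0258 by library size alone and 0.0595 with the replicate block. With complement genes kept for clustering, immune Serping1 had -0.21. Interstitial macrophage C3ar1 had 0.21 at Leiden resolution 0.5, 0.00688 at 2, 0.19 with complement genes kept, 0.0308 by library size alone, 0.00431 without mixed cells and 0.000325 with the replicate block. Adventitial C3 had 0.15 at Leiden resolution 0.5. Low UMI numbers limit C4b (25 to 131 per library) and the endothelial values.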
